A study of Homo sapiens with 2 samples.

Results

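The peaks of DDX18 iCLIP that lay in internal coding exons numbered 6401 of the 16095 distinct positions in the deposited list. A peak belonged to them when the authors' annotation placed it in coding sequence in exon k of N of a transcript, with k above 1 and below N. First and last coding exons below mean coding peaks labelled exon 1 and exon N, not ranks among the coding exons. DDX18 belongs to the DEAD-box helicases and sits in the nucleolus, and iCLIP reads the RNA that ultraviolet light has crosslinked to a protein. The H9 human embryonic stem cell line, made to express 3XFlag-DDX18 and grown under normal culture on inactivated mouse fibroblasts, was irradiated with 160 mJ/cm2 at 254 nm. The group held 2 samples, replicates 1 and 2, and both share 1 peak list. No untagged or input sample was used here. With no value per replicate, no test between samples could be made, no spread between replicates can be given, and peaks of 1 list are not replicates. The labels do not say whether the samples came from separate cultures, which promoter drove the tagged protein, or whether the cells were 1 clone.

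Internal coding exons are the part of a spliced mRNA between the first and the last exon. Ribosomes read them during translation in the cytoplasm, and the spliceosome joins them in the nucleus. DEAD-box helicases bind RNA mostly through its backbone, and DDX18 is best known for its part in making ribosomes. A peak in an exon can come from unspliced or spliced RNA, and the peak list does not separate the 2.

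Internal exons held 39.8% of all positions (95% interval 39.0 to 40.5) and 85.2% of the 7512 positions in coding exons (84.4 to 86.0). They held 10.9% of the summed height. The share of height was below that of positions in the other 3 regions too. It was 5.9% against 18.4% in 3' UTRs, 1.33% against 4.74% in last coding exons and 0.54% against 2.03% in first ones. First coding exons held 326 positions, last coding exons 763, and single-exon genes 22. Heights in internal exons had a median of 9 (quartiles 6 and 13) and ran from 3 to 150, with a sum of 71163. The median was 8 in first exons, in last exons and in 3' UTRs. Their highest peaks reached 166, 178 and 3529. Heights of 20 or more made up 9.44% of internal-exon peaks (8.73 to 10.2), against 6.44% in first exons (4.03 to 9.68), 9.04% in last exons (7.1 to 11.3) and 10.1% in 3' UTRs (8.99 to 11.2). The intervals overlap between internal exons and each of the other 3 regions. All intervals cover counting error only.

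The share of internal exons varied with the minimum height. Among positions of height 10 or more, 45.8% lay in internal exons (44.5 to 47.1). The share was 34.0% at 20 or more (31.8 to 36.3), 23.6% at 30 or more (21.0 to 26.4) and 9.49% at 50 or more (48 of 506). Of the 264 positions of height 100 or more, 2 lay in internal exons (0.758%, 0.0919 to 2.71). Such shares were not made for the other regions.

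Higher peaks were narrower. Peaks of heights 3 to 5 had a median width of 19 nt, those of 9 to 13 one of 9 nt, and those of 30 to 49 one of 2 nt. Single-base peaks made up 8.33% of the internal-exon peaks (7.66 to 9.03), and 41.7% of the 48 with a height of 50 or more. Widths ran from 1 to 41 nt. First exons (8.59%), last exons (7.47%) and 3' UTRs (8.49%) had shares of single-base peaks whose intervals include the internal-exon share. How the peak caller set widths is not given in the sources used here.

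**Figure D1:**
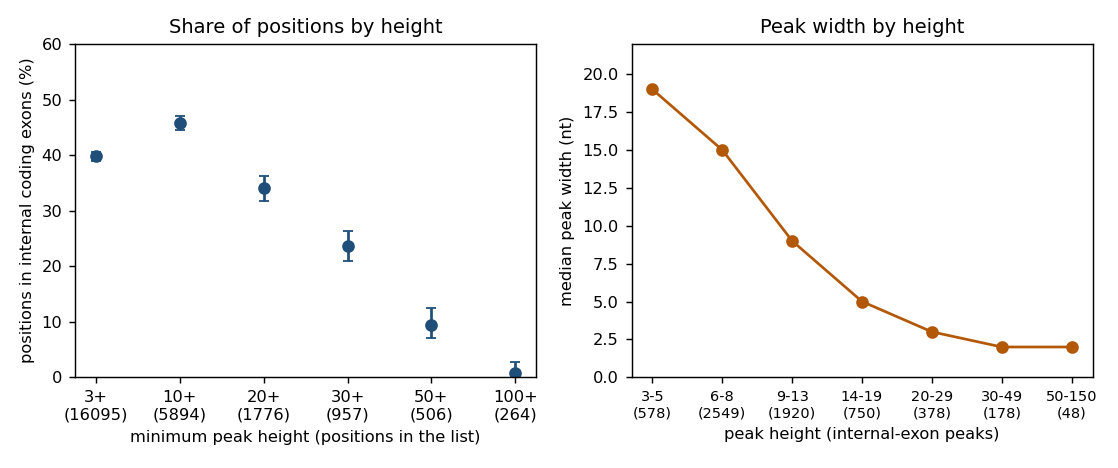
Left, the share of listed positions that lay in internal coding exons (%) by minimum peak height, with exact 95% binomial intervals and the number of positions in brackets. Right, the median width in nt of internal-exon peaks by height class, with the number of peaks in brackets; the share falls from 45.8% at heights of 10 or more to 0.758% at 100 or more, and the median width falls from 19 to 2 nt.

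The authors' expected height is a single value per called gene, and every internal-exon peak stood above it. No listed internal-exon peak had a deposited p above 0.05, so a height above the expected one goes with being listed. The median ratio of height to expected height was 77.8 (quartiles 40.6 and 150.0), and 97.8% of peaks were at least 10 times the expected height. That median ratio was 100 in first exons, 75 in last exons and 85.7 in 3' UTRs. The expected height was listed as 0 for 58 peaks, which were ranked above all others. The deposited p-value was at its lower limit of 1e-100 for 996 peaks (15.6%) and reached 0.05. Long genes had low expected heights: genes under 0.05 had a median length of 104618.5 bases, and genes at 3 or more one of 6652 bases. A peak therefore had to be higher to be listed in some genes than in others. Among peaks whose called gene owned the annotated transcript, the lowest listed height was 3 in genes with an expected height under 0.05, 12 in genes from 1 to 3, and 19 in genes from 3 up. Median heights were higher with it: 6 in the lowest class, 13 between 0.2 and 1, and 34.5 in the highest. Within the class from 0.05 to 0.2 the median was 8 in internal exons, in first exons, in last exons and in 3' UTRs. Between 0.2 and 1 it was 13 in internal exons, against 11 in first exons, 12 in last exons and 12 in 3' UTRs. Between 1 and 3 it was 23 in internal exons, against 23 in first exons, 19 in last exons and 27 in 3' UTRs. In the class from 3 up it was 34.5 in internal exons (136 peaks), against 35 in first exons (5 peaks), 33.5 in last exons (20 peaks) and 53 in 3' UTRs (39 peaks). A height in these genes cannot be told apart from the abundance of the RNA.

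The peaks were called in 2704 genes, 40.4% of the 6695 called genes of the whole list, and 2673 of them were protein-coding. A single internal-exon peak was listed for 1598 genes and 2 or more for 1106 (40.9%, 39.0 to 42.8). Few genes held many: 308 had 5 or more, 108 had 10 or more and 22 had 20 or more. The 108 genes with 10 or more held 26.2% of the 6621 entries. Internal exons were the only listed location in 1099 genes (40.6%). A peak in the 3' UTR was also listed for 820 genes (30.3%), one in an intron for 521 (19.3%) and one in the last coding exon for 268 (9.91%).

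The genes with the most peaks had transcripts of many exons. DYNC1H1, the heavy chain of cytoplasmic dynein, led with 49 peaks of heights 13 to 30 in 41 of its 76 internal exons. FRAS1, a basement membrane protein, had 45 peaks of heights 7 to 22 in 38 of 72 internal exons. PRKDC, the catalytic subunit of the DNA-dependent protein kinase, had 42 of heights 9 to 23 in 41 of 84. In these 3 genes the peaks were spread thinly over about as many exons as there were peaks. The highest peak was 30 against a median of 16 in DYNC1H1, 22 against 9 in FRAS1 and 23 against 12.5 in PRKDC.

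HSPG2, which encodes perlecan, had 40 peaks in 39 of 95 internal exons, and MACF1, a crosslinker of actin and microtubules, had 39 in 33 of 91. PTPRZ1, a receptor tyrosine phosphatase, had 33 peaks in 19 of 28 internal exons, with heights of 9 to 26. LRP1, a large endocytic receptor, also had 33 peaks in 29 of 87 internal exons, with a highest of 60 against a median of 16. SPTBN1, a beta spectrin, had 31 in 24 of 34 internal exons. PTPRF, of the same phosphatase class as PTPRZ1, had 24 in 16 of 32. The 12 genes with the most peaks together held 424 entries (6.4%).

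FLNA and FASN stood apart from the other 10 by height. FLNA, the filamin that links actin filaments, had 34 peaks in 30 of 45 internal exons, with a lowest of 23, a median of 32.5 and a highest of 79. FASN, the fatty acid synthase, had 26 peaks in 25 of 41 internal exons, with a lowest of 28, a median of 40.5 and a highest of 92. The medians of the other 10 genes lay between 9 and 16. The expected heights of FLNA (4.12) and FASN (6.27) were also the highest of the 12, against 0.93 for DYNC1H1 and 0.1 for FRAS1.

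**Figure D2:**
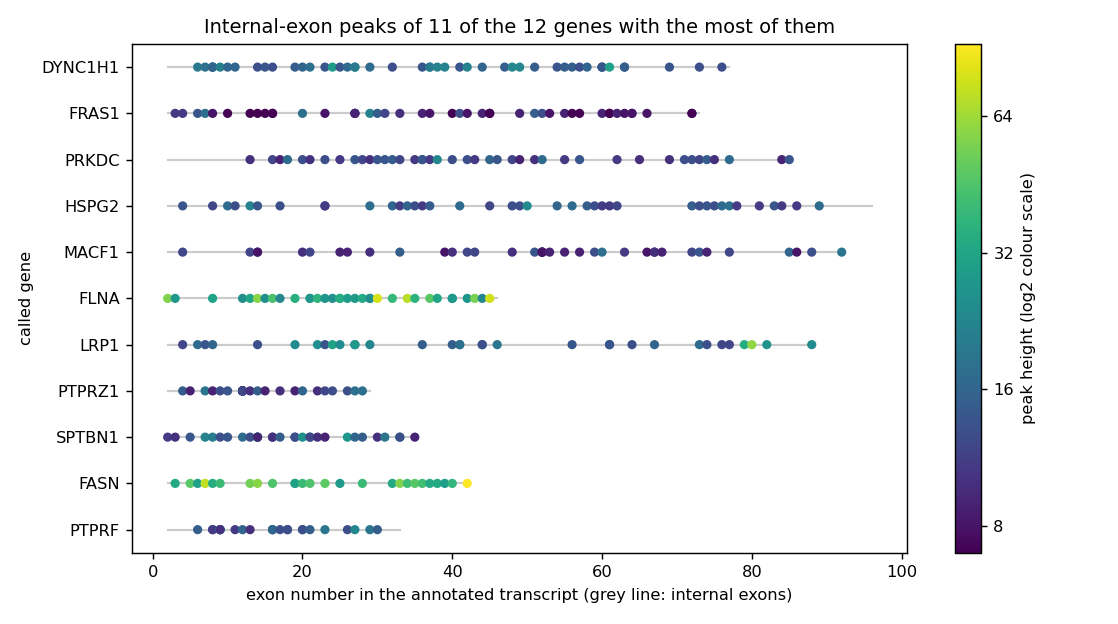
Internal-exon peaks of 11 of the 12 genes with the most of them, by exon number of the annotated transcript; the grey line spans the internal exons and the colour gives the peak height on a log2 scale. Peaks lie along most of each transcript, and FLNA (23 to 79) and FASN (28 to 92) have the highest.

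The highest internal-exon peaks lay in mRNAs of the cytoskeleton, of translation and of lipid synthesis. ACTB, which encodes beta-actin, had the highest of all, 150, a single base at position 5568309 on the minus strand of chromosome 7 (hg19) in exon 4 of 6. Its other 5 internal-exon peaks had heights of 67, 52, 46, 64 and 55, against an expected height of 15.62. The ACTB peak of 150 thus stood more than 2 times above its neighbours in the same gene.

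SCD, the stearoyl-CoA desaturase, had 7 internal-exon peaks over its 4 internal exons. Their heights were 74, 74 and 53 in exon 2, 111 in exon 3, 50 and 30 in exon 4, and 73 in exon 5 of 6. The highest lay at 102112164 to 102112165 on the plus strand of chromosome 10. No internal exon of SCD was without a peak.

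FADS2, a fatty acid desaturase, had 10 peaks of heights 46, 34, 65, 71, 46, 17, 39, 74, 71 and 76 in order along exons 2 to 11 of 12, with exon 10 the only internal exon without one. The lowest of them, 17 in exon 6, had the weakest deposited p of the gene (0.00925). The FASN peak of 92 lay in exon 42 of 43, at 80037349 to 80037356 on the minus strand of chromosome 17, and that of 72 in exon 7. EEF1A1, the elongation factor that brings aminoacyl-tRNA to the ribosome, had 2 peaks, of 79 in exon 3 and 32 in exon 7 of 8, with an expected height of 1.01. The FLNA peaks of 79 and 76 lay in exons 30 and 45 of 47.

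**Figure D3:**
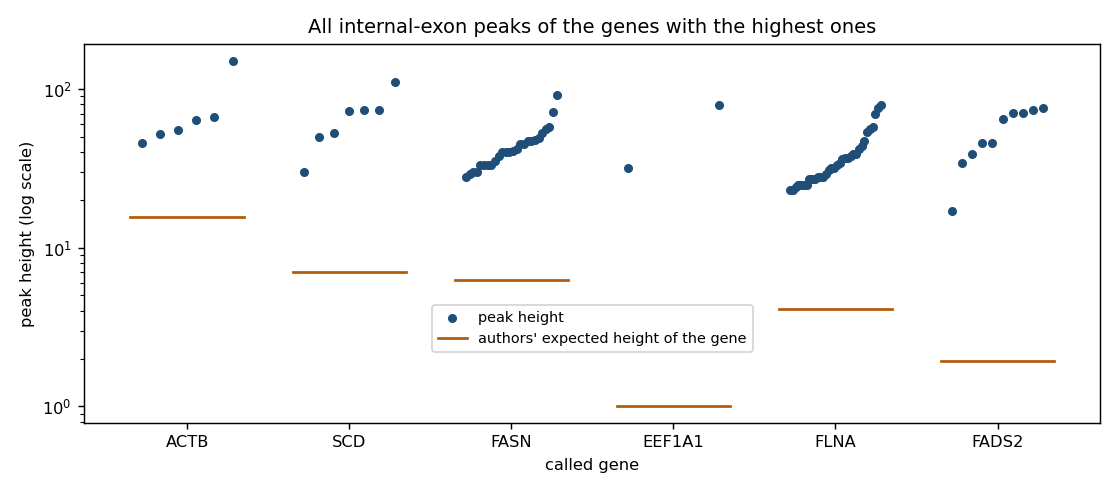
Heights of all internal-exon peaks of the 6 genes that hold the 12 highest ones (points, log axis) with the authors' expected height of each gene (line). All points lie above the line, as every listed internal-exon peak does, and run from 17 in FADS2 to 150 in ACTB.

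Genes of fatty acid and cholesterol synthesis were among those with the highest peaks. The 2 lists of these genes were made after the heights had been seen, so their counts and heights are a description only and support nothing. Their 52 genes held 213 of the 6401 peaks (3.33%) and 22 of the 48 peaks of height 50 or more (45.8%). The 22 lay in 6 genes, among them SCD, FASN, FADS2 and FDFT1.

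FDFT1, the squalene synthase, had 4 peaks with a highest of 65 in exon 5 of 7. LSS, the lanosterol synthase, had peaks of 13, 15 and 38 in exons 3, 9 and 18 of 21. SREBF2, the transcription factor that switches on sterol genes, had 19 of heights 10 to 38, and ACLY, which makes cytosolic acetyl-CoA, had 20 of heights 12 to 42. Of the sterol list 16 of 24 genes had an internal-exon peak, with a median height of 18.5 over 102 entries. Of the fatty acid list 14 of 28 had one, with a median height of 20 over 111 entries. ACACA, the acetyl-CoA carboxylase, had 14 peaks of at most 12 and an expected height of 0.08. The highest peaks of HACD2 (6), MLXIPL (6) and ELOVL4 (5) were lower still.

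Over all 20052 protein-coding genes of the RefSeq table, 13.3% had an internal-exon peak, and the median height of their entries was 9. That background includes genes that are not expressed in these cells and genes with no internal exon, so a higher share in a list of widely used genes was not separated from expression. Of the 14 lists other than those of lipid synthesis, all but the neuroectoderm markers had a share whose interval lay above 13.3%. These lists were chosen with earlier results of these data known, so that count is a description only. Among the 6218 protein-coding genes with any listed peak, 43.0% had one in an internal exon. Counted over such genes, the share was 33.3% for neuroectoderm markers, 52.8% for ribosome assembly, 60.6% for translation factors and 96.8% for extracellular matrix. No intervals were made for these shares. No difference between lists was tested, and their order changed with the minimum height. The 13.3% counts listed peaks of any height. Called genes with an internal-exon peak fell from 2704 to 846 with heights of 10 or more. They fell to 1512 when only peaks at or below the median deposited p-value were kept. No share over all protein-coding genes was made at these stricter settings. List counts given below for them therefore have no background, and the 13.3% does not apply to them.

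Extracellular matrix genes had a peak in 30 of 34 (88.2%, 72.5 to 96.7), with 291 entries and a median height of 10, and 21 of the 34 had one of height 10 or more. COL18A1, a basement membrane collagen (27), VCAN, the proteoglycan versican (26), LAMA1, a laminin chain (25), and HSPG2 (24) led it. Chaperone and proteasome genes had a peak in 29 of 36 (80.6%), with 127 entries and a median height of 15, and 25 had one of height 10 or more. The 4 highest were all of the endoplasmic reticulum: PDIA6 (70), CALR (61), HSP90B1 (51) and CANX (40), which fold secreted proteins. PDIA6 reached 70 with an expected height of 0.47, whereas CALR reached 61 with 4.92.

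Motor and cytoskeleton genes had a peak in 29 of 44 (65.9%, 50.1 to 79.5), with 294 entries and a median height of 13, and 14 had one of height 10 or more. Behind FLNA (79), DYNC1H1 (30), VCL, the adhesion protein vinculin (30), and SPTBN1 (29) led this list. Chromatin remodelers had one in 22 of 31 (71.0%, 52.0 to 85.8), with 90 entries and a median height of 9, and 10 had one of height 10 or more. CHD4, the helicase of the NuRD complex, had 13 peaks with a highest of 20. SMARCA4 (17), SMARCC1 (15) and SMARCB1 (14), all subunits of BAF complexes, followed. Nuclear pore and transport genes had one in 28 of 41 (68.3%, 51.9 to 81.9, median height 10), led by KPNB1 (18), RAN (18), KPNA2 (17) and NUP210 (17), and 13 had one of height 10 or more. DNA replication genes had one in 23 of 35 (65.7%, 47.8 to 80.9, median height 9), led by MCM3 (20), MCM7 (14), TOP2A (13) and MCM6 (12). Of these 35 genes, 8 had a peak of height 10 or more, and 12 had one when only peaks at or below the median deposited p-value were kept.

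Splicing and hnRNP genes had a peak in 35 of 54 (64.8%, 50.6 to 77.3), with 126 entries and a median height of 12.5. HNRNPA1 had 1 peak of 60 in exon 8 of 10, and SRRM2, a protein of nuclear speckles, had 12 with a highest of 40. HNRNPL, another hnRNP, reached 24 with 7 peaks. Aminoacyl-tRNA synthetase genes had one in 14 of 23 (60.9%, 38.5 to 80.3, median height 9), led by AARS1 (25), MARS1 (22), IARS1 (16) and GARS1 (14), and 8 had one of height 10 or more. Translation factor genes had one in 20 of 38 (52.6%, 35.8 to 69.0, median height 11). After EEF1A1 (79), EEF2, the translocase of the ribosome (68), PABPC1 (24) and EIF2S3 (20) were the highest.

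Internal-exon peaks of ribosomal protein genes were listed for 32 of 76 genes (42.1%, 30.9 to 54.0), although 64 had a peak anywhere, and the 49 internal-exon entries had a median height of 15. A peak of height 10 or more was listed for 28 of the 76. RPL37A (41), RPLP1 (34), RPS6 (34) and RPL8 (32) led them. These genes, like ACTB, EEF1A1 and HNRNPA1, have near-identical pseudogene copies, and the treatment of reads that match several places is not known here, so their heights are uncertain. Ribosome assembly and nucleolar genes had one in 19 of 48 (39.6%, 25.8 to 54.7), and the median height of their 42 entries was 8. Of these 48 genes, 4 had a peak of height 10 or more, and 12 had one when only peaks at or below the median p-value were kept. NPM1, which encodes nucleophosmin, had the highest, 22, ahead of PDCD11 (13), DDX21 (12) and MYBBP1A (10). DDX18 itself had 1 internal-exon peak, of height 8 in exon 4 of 14, at 118578831 to 118578843 on the plus strand of chromosome 2, with an expected height of 0.15. RNA of the tagged construct and of the cells' own gene cannot be told apart there.

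Markers of pluripotent cells had an internal-exon peak in 7 of 12 genes (58.3%, 27.7 to 84.8), with 26 entries and a median height of 14. PODXL, a cell-surface sialomucin, reached 51 and DNMT3B, a DNA methyltransferase, had 11 peaks with a highest of 23. DPPA4 reached 15, LIN28A 14 and NANOG 5. POU5F1 and SOX2 had none, and SOX2 has no internal exon. Fibroblast markers had one in 5 of 12 (41.7%, 15.2 to 72.3), with 15 entries and a median height of 11. COL1A1 (17), COL1A2 (16), COL6A1 (13) and COL5A1 (6) led them. The feeder cells were mouse fibroblasts, and the part of mouse reads in these peaks was not tested. Of 6 neuroectoderm markers, TUBB3 alone had one, of height 10.

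**Figure D4:**
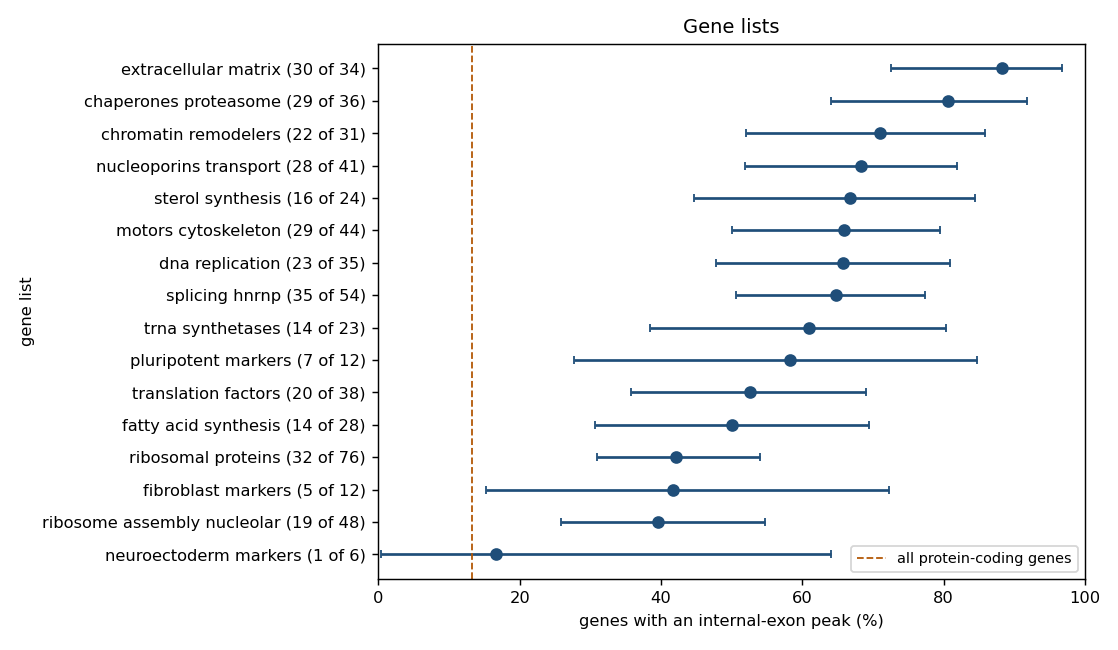
Share of the genes of each list with at least 1 internal-exon peak (%), with exact 95% binomial intervals and the counts in brackets; the dashed line is the 13.3% of all protein-coding genes. Shares run from 16.7% of neuroectoderm markers to 88.2% of extracellular matrix genes; the lipid synthesis lists were made after heights were seen.

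Along the transcript, the peaks were sparser toward the 3' end of the internal exons. For the 5912 peaks in transcripts of 7 or more exons, the internal exons were cut into 5 equal classes, and each was compared with its even share, the share of the internal exons of the same transcripts that lie there. The class nearest the 5' end held 1306 peaks, 1.11 times its even share (1.06 to 1.17), and the second held 1265 (1.07 times, 1.02 to 1.12). The third and the fourth were at 0.996 and 1.01 times. The class nearest the 3' end held 951, or 0.81 times (0.763 to 0.858). With heights of 10 or more the 5' class was at 1.02 times its even share. Median heights were 8 or 9 in every class.

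Single exons followed the same order. Exon 2 held 483 peaks against 408.3 by even share (1.18 times, 1.08 to 1.29) and exon 3 held 500 (1.22 times, 1.12 to 1.33). The exon next to the last held 321 (0.786 times, 0.705 to 0.874) and the one before it 336 (0.823 times, 0.74 to 0.913). Exons were counted without their lengths. The annotation also gives the stretch around a transcript's end its own label before it considers exons, so peaks lost to that label near the 3' end cannot be told apart from fewer peaks.

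**Figure D5:**
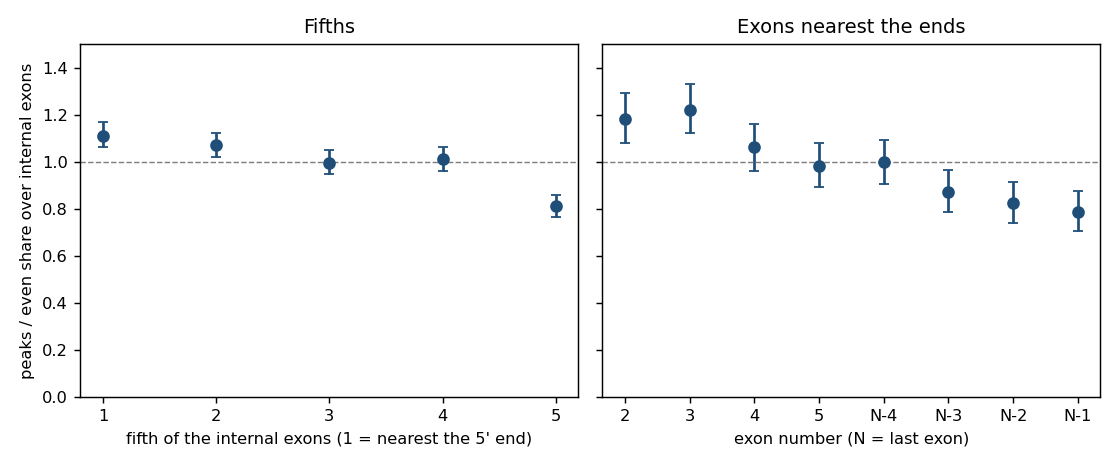
Internal-exon peaks divided by their even share over the internal exons of the same transcripts, in 5 equal classes from the 5' end (left) and for the exons nearest each end, where N is the last exon (right); bars are exact 95% binomial intervals and the dashed line marks 1. The ratio is 1.11 in the class nearest the 5' end and 0.81 in the one nearest the 3' end.

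Per exon, and with only peaks labelled as coding counted, internal exons held fewer peaks than last exons and more than first ones. Over the 3153 transcripts of 3 or more exons with a coding peak, 44824 internal exons held 0.143 peaks each, against 0.217 per last exon and 0.0986 per first exon. The ratio of internal to last exons was 0.658. In transcripts of 3 to 10 exons the values were 0.246, 0.352 and 0.133. These transcripts were taken because they had a coding peak, and only the coding parts of the first and the last exon count here. Peaks labelled as 5' UTR, 3' UTR or start site were left out. Each transcript still counted as 1 first and 1 last exon, whether or not that exon has a coding part. The lower rate of first exons cannot be told apart from this counting, which can lower the rate of last exons too. All internal exons were counted, also any without a coding part. Exon lengths were not used, so the difference between internal and last exons was not separated from length.

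Most exons with a peak had just 1: of 5881 such exons, 5509 (93.7%) had 1 peak and 372 had 2 or more. Starts of neighbouring peaks in 1 exon were at least 34 nt apart, with a median of 131 nt (quartiles 84 and 279, 515 pairs). These distances left a remainder of 0, 1 and 2 on division by 3 in 185, 157 and 173 pairs. In exons with 2 or more peaks the highest was a median of 1.29 times the lowest, and at most 7.25 times. The lowest listable height was set per gene, so this ratio is cut off from below.

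A few exons held long runs of peaks. Exon 12 of 30 of PTPRZ1 had 15 peaks of heights 10 to 26 over a span of 3392 nt on chromosome 7. Exon 8 of 15 of VCAN had 15 of heights 9 to 19 over 4737 nt. Exon 2 of 3 of AKAP12, a kinase scaffold, had 13 of heights 7 to 11 over 4736 nt. Exon 11 of 15 of SRRM2 had 12 of heights 23 to 40 over 5523 nt. These spans are lower bounds of the exon lengths, so the number of peaks in an exon was not separated from its length. ZNF462 had 7 listed in exon 3 of 13, of which 1 lay on the opposite strand under another gene, and FAT1 had 6 in exon 10 of 27. JARID2, a subunit of a Polycomb complex, also had 6, in exon 7 of 18, but within 791 nt.

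In 922 called genes a peak was listed both in an internal exon and in the last coding exon or the 3' UTR. Peaks with the label of a transcript's end were left out, so the end side can miss peaks. The abundance of the RNA is shared where both peaks lie in that gene. A position listed under several genes counted once for each of them here. The ALDOA pair (24 against 35), for instance, also counted under SLX1A and SULT1A3. Without such positions the median log2 ratio of the highest peaks was likewise 0. The highest internal-exon peak was higher in 418 (45.3%), equal in 148 and lower in 356 (38.6%), with a median log2 ratio of 0 (quartiles -0.26 and 0.42). With the median height per gene in place of the highest, internal exons were higher in 331 and lower in 414. In the 261 genes with 1 peak on each side they were higher in 77, equal in 80 and lower in 104. The side with more peaks is favoured when the highest is taken, and the direction of the count turned with that choice. RCN2, a calcium-binding protein of the endoplasmic reticulum (34 against 9), FDFT1 (65 against 22) and CD81, a tetraspanin (44 against 15), had the highest ratios. SFRP2, a secreted modulator of Wnt signals (24 against 157), HNRNPH1 (16 against 68) and SLC2A1, a glucose transporter (17 against 72), had the lowest.

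With only entries whose called gene owned the annotated transcript, 284 genes had 5 or more internal-exon peaks. In them the highest peak was a median of 2.0 times the lowest (quartiles 1.6 and 2.47, at most 6.36). The same limit from below holds for this ratio.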

How the data were processed

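Per the labels' protocols, an anti-FLAG antibody recovered 3XFlag-DDX18 from H9 cells exposed to UV light. Per the file headers, the peaks were annotated on hg19 with annotatePeaks.pl of HOMER. FastQC 0.10.1 and BWA appear in the submitters' processing notes, as does hg19. How peaks were called, how duplicates were handled and what made a peak significant is not given in the sources used here. The authors deposited each peak height as a whole-number signal, with no input to set it against, and other columns hold positions and distances in nt. The expected height and the p-value stand in the peak's name.

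From there, exon numbers were read from the annotation, each position was counted once, and gene names came from the RefSeq table of GRCh38.p14 by Entrez identifier (2700 of 2704 called genes). For a position listed under several genes, the entry whose gene owns the annotated transcript was kept. Counts per called gene used all entries. Relative positions used transcripts with 7 or more exons. The code was tested on simulated data with known answers. Intervals are exact 95% binomial intervals (Clopper-Pearson). Python 3.11.15, pandas 2.3.3 and scipy 1.17.1 were used.

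The members and gene lists were chosen with earlier results of these data known. Genes were named by rule, and a few that it names are not reported here: the 12 with the most peaks, the 12 highest peaks, the 5 highest ratios to the expected height among peaks of 10 or more, the top 4 of each list, the 6 exons with the most peaks, DDX18, and the 3 genes at each end of the comparison within genes. The 2 lipid synthesis lists were added after the heights had been seen, and members named beyond the top 4 of those lists were chosen after their values were seen, as were SLC2A3, APOE, PTPRD and NANOG. Alternatives changed the counting of repeat entries, the p-value, the minimum height, the gene assignment, the nearest small RNA genes and the position classes. Reads per sample are unknown here.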

Additional observations from a re-analysis of the deposited data

How the results depend on the processing

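On repeating the main values, 54 stayed within their counting interval or within 1.5 times their count, and 18 did not. Some of the 54 could not change. With every entry counted, the number of genes, the share with 2 or more peaks and the ratio within genes were fixed, as they used all entries already. The share of positions was 38.6% with every entry counted, 41.1% when only peaks at or below the median deposited p-value were kept and 45.8% with heights of 10 or more. It was 40.6% without positions of several genes, and likewise 40.6% without positions nearest a small RNA start. The median height was 11 with the stricter p-value and 14 with heights of 10 or more, as a minimum height must give. The median ratio to the expected height was 81.2 with every entry counted, 41.2 with heights of 10 or more and 85.7 in genes with an expected height under 1, an alternative chosen after seeing the data. Genes with an internal-exon peak numbered 1512 with the stricter p-value and 846 with heights of 10 or more. The share with 2 or more peaks was 36.0% and 50.2% in those settings. The 5' class was at 1.02 times its even share with heights of 10 or more, and the 3' class at 0.876 times when 3 position classes replaced 5. The ratio of peaks per internal to last exon was 0.717 with heights of 10 or more. Of the 14 lists, 290 genes had an internal-exon peak, and 178 had one of height 10 or more. Counts changed by over 1.5 times with heights of 10 or more in 7 of the 16 lists, to 10 for chromatin remodelers, 8 for DNA replication, 3 for fibroblast markers, 14 for motors, 13 for nuclear transport, 4 for ribosome assembly and 8 for tRNA synthetases. They did so with the stricter p-value in 7, to 13, 12 and 3 for chromatin remodelers, DNA replication and fibroblast markers, 4 for pluripotent markers, 12 for ribosome assembly, 13 for translation factors and 9 for tRNA synthetases. In genes with an expected height under 1 the sterol list had 10 in place of 16. The list has no value per replicate, so no replicate could be left out. Depth limits which low peaks could be listed, and reads per sample are unknown here.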

Other observations

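The highest ratios to the expected height among peaks of height 10 or more lay in 5 genes. GPC3, a cell-surface glypican, had a peak of 23 in exon 3 of 8 against an expected height of 0.02. SLC2A14, a near copy of the SLC2A3 gene (12), PLCH2, DYM and ROBO1 (11 each) had peaks against an expected height of 0.01. The expected height is given to 2 decimals, so these ratios are coarse. PTPRD had a peak of 10 with the expected height listed as 0. Other genes with 2 peaks of 50 or more were SLC2A3, a glucose transporter (highest 63), and APOE, a lipoprotein (highest 60).

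Almost all the peaks lay on the strand of the annotated transcript's gene. Of 5251 peaks whose gene has a strand in the RefSeq promoter table, 5229 (99.6%) were on it and 22 were on the opposite strand, with a highest of 33. In 73 of 6359 peaks the called gene and the gene of the transcript differed.

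A position was listed under several genes in 95 cases. Of the 25 listed under 5 or more, 10 lay in SEZ6L2 and 7 in ALDOA, an enzyme of glycolysis, on chromosome 16, where genes with copies elsewhere on the chromosome were also called. The protocadherin alpha genes, which share their last exons, had 1 position listed under 15 genes. Called genes of other biotypes were 10 lncRNAs, 8 transcribed pseudogenes, 5 miRNAs, 2 pseudogenes, 1 snRNA and 1 antisense RNA.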
